A study of Homo sapiens with 7 samples.

Results

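The 8 genes described here, *B2M*, *HLA-B*, *HLA-C*, *TAP1*, *TAP2*, *TAPBP*, *ERAP1* and *NLRC5*, encode the core of MHC class I antigen presentation, and were followed through 7 lists of Rb CUT&RUN peaks, among 19970 protein-coding genes on chromosomes 1 to 22 and X. A promoter peak was a called peak overlapping the stretch from 2000 bp upstream to 500 bp downstream of any GENCODE transcription start site (TSS) of the gene, and peaks elsewhere inside the gene were counted separately. CUT&RUN uses a nuclease tethered to an antibody to release the DNA around a chromatin protein, here Rb, the product of *RB1*. ZR-75-1, a widely used cell line from an oestrogen receptor-positive breast tumour, was kept for 4 days in DMSO or in 500 nM palbociclib, a CDK4/6 inhibitor that keeps Rb hypophosphorylated.

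Parental cells gave 2 Rb libraries with DMSO and 2 with palbociclib, *RB1*-knockout (RB1 KO) cells gave 1 Rb library with DMSO and 1 with palbociclib, and mouse IgG2a, a non-targeting antibody, was used on 1 library of palbociclib-treated parental cells. All groups carried the same cell-line background, and RB1 KO cells came from single-cell-sorted clones edited with Cas9 and a single guide, so that clonal differences and loss of Rb cannot be told apart in these 2 libraries. The palbociclib experiment was performed once, so the replicates describe the spread within that experiment. On chromosomes 1 to 22 and X the lists held 922 and 753 peaks with DMSO, 8314 and 8171 with palbociclib, 4 and 5 in RB1 KO cells and 1724 with IgG2a. The files hold called peaks and no reads, so depth is unknown, and a gene without a peak is one where none was called.

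MHC class I molecules display peptides from inside the cell to CD8+ T cells. Proteasomes cut proteins into peptides, the TAP1-TAP2 transporter carries these into the endoplasmic reticulum, ERAP1 trims them, and tapasin (*TAPBP*) helps load them onto a heavy chain such as HLA-B or HLA-C paired with beta-2-microglobulin (*B2M*). NLRC5 is the transactivator of the class I genes and works at a promoter module that includes a cAMP response element-like box and a reversed CCAAT box. An interferon-stimulated response element (ISRE) is a further known feature of several of these promoters.

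The sequences below are shown because they are the stretches under, or without, an Rb peak. All are in hg38 and outside annotated untranslated regions, and capitals mark every letter that matched a searched motif on either strand. The first 3 have palbociclib peaks.

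*ERAP1*, 100 bp to either side of the summit in palbociclib replicate 2, chr5:96807647-96807847, plus strand: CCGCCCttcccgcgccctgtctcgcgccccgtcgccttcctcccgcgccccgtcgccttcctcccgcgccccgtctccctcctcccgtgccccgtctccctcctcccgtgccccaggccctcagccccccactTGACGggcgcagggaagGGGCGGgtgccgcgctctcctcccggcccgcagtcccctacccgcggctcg

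*B2M*, upstream of the RefSeq start, chr15:44711324-44711508, plus strand: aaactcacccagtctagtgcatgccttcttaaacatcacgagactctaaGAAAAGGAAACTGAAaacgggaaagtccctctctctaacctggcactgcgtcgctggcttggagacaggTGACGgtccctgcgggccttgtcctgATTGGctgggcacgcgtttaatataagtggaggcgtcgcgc

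*TAP1*, upstream of the RefSeq start, chr6:32853817-32853954, minus strand: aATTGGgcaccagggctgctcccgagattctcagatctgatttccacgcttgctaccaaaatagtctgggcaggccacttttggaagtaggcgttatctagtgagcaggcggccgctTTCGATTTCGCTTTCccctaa

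The *HLA-C* promoter, which had no peak, carries the cAMP response element core (TGACG) and reversed CCAAT box also found at *B2M*, and the last stretch is the peak at the 3′ end of *TAPBP*, with 100 bp to either side of the summit in palbociclib replicate 1.

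*HLA-C*, upstream of the RefSeq start, chr6:31272106-31272342, minus strand: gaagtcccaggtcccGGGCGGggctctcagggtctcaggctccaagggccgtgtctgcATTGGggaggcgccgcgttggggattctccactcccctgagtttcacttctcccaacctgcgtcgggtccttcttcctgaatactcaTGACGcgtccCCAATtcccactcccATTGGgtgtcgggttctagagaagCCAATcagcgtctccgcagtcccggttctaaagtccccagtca

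*TAPBP* 3′ end, chr6:33299326-33299526, plus strand: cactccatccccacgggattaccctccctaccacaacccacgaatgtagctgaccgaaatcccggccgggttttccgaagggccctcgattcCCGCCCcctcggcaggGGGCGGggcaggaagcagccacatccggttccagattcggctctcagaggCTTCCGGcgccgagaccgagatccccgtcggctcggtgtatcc

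Promoters of *B2M* and *ERAP1* had an Rb peak in both palbociclib libraries and in neither DMSO library. Among the 8 genes these were the 2 with a promoter peak in both palbociclib libraries, against 34.9% of all protein-coding genes, so their share was not above that of all genes. *TAP1* was the 1 gene with a promoter peak in exactly 1 palbociclib library, against 8.82% of all genes. No member had a promoter peak in a DMSO library, where 6.59% of all genes had one. *B2M* and *ERAP1* were therefore also the 2 of 8 with a peak in both palbociclib libraries and in no DMSO library, a class that held 28.4% of all genes. In RB1 KO cells none of the 8 promoters had a peak, but only 0.01% of all genes had one, and with IgG2a none of the 8 had one, against 1.95% of all genes.

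**Figure D1:**
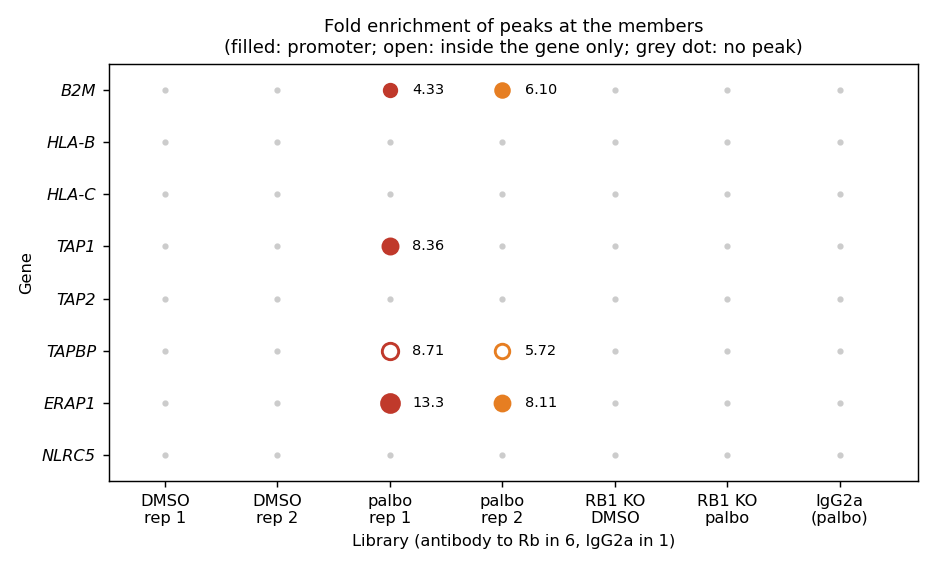
Fold enrichment over local background (the number beside each circle) of the peaks at the 8 genes, 1 gene per line and 1 library per column, with circle area growing with fold enrichment. Circles appear in the 2 palbociclib Rb columns only, with filled circles for promoter peaks at *B2M*, *TAP1* and *ERAP1*. Open circles show the *TAPBP* peak, which overlaps the 3′ end of the gene and has its summits just beyond it.

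*B2M* encodes the invariant light chain shared by all class I molecules. In palbociclib replicate 1 its peak spanned chr15:44711377-44711841, 465 bp wide, with a fold enrichment of 4.33. In replicate 2 it spanned chr15:44711339-44711989, 651 bp wide, with a fold enrichment of 6.10. The 2 peaks overlapped and lay on the start site, with summits at +82 and -10 bp from the canonical TSS, in a coding exon and in a non-coding exon of *B2M*. The same peaks reached into the promoter window of *PATL2*, the divergent neighbouring gene, so the signal cannot be assigned to *B2M* alone. Mean fold enrichment was 5.21 ± 1.26 (SD, n = 2).

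Fold enrichment at *B2M* was low for a promoter peak, and the fragment counts were not. Of all promoter peaks, 9.90% in replicate 1 and 34.2% in replicate 2 had a lower fold enrichment. The summit carried 18 fragments in replicate 1 (95% exact Poisson interval 10.7 to 28.4) and 21 in replicate 2 (13.0 to 32.1), next to medians of 18 and 19 fragments over all promoter peaks. These intervals cover counting error only. The local background at the *B2M* summit was 3.39 and 2.61 fragments, next to medians of 1.45 and 1.56, and 93.1% and 80.8% of promoter peaks had a lower background. Fold enrichment is computed over this background, with 1 fragment added to both numbers. The study called peaks with IgG as control, so the background was estimated from the control and not from the Rb library. The intervals above do not cover error in it.

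*ERAP1*, the aminopeptidase that trims peptides to the length class I molecules hold, had the highest fold enrichment among the member promoters. Its peak spanned chr5:96807458-96808089 in palbociclib replicate 1, with a width of 632 bp and a fold enrichment of 13.3. In replicate 2 it spanned chr5:96807394-96808095, with a width of 702 bp and a fold enrichment of 8.11. Both peaks covered the TSS and had summits downstream of it, at +115 and +198 bp, in an intron, and no other protein-coding promoter lay under them. Mean fold enrichment was 10.7 ± 3.65 (SD, n = 2), which was above the values at *B2M* in each library.

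At *ERAP1* the palbociclib lists differed more in the background, which was estimated from the IgG control, than in fragments at the summit. The summit held 26 fragments in replicate 1 (95% exact Poisson interval 17.0 to 38.1) and 24 in replicate 2 (15.4 to 35.7), and the local background was 1.03 and 2.08 fragments. By fold enrichment *ERAP1* stood above 78.7% of all promoter peaks in replicate 1 and above 53.3% in replicate 2. By −log10 q it ranked 1771 of 8399 peaks and 2912 of 8256 peaks. Of the 5510 genes with the same presence across the 7 lists, *SNX13* and *KMT2A* had the mean log2 fold enrichment nearest to that of *ERAP1*. Their fold enrichments were 12.0 and 8.99 for *SNX13* and 9.54 and 11.3 for *KMT2A* in replicates 1 and 2.

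**Figure D2:**
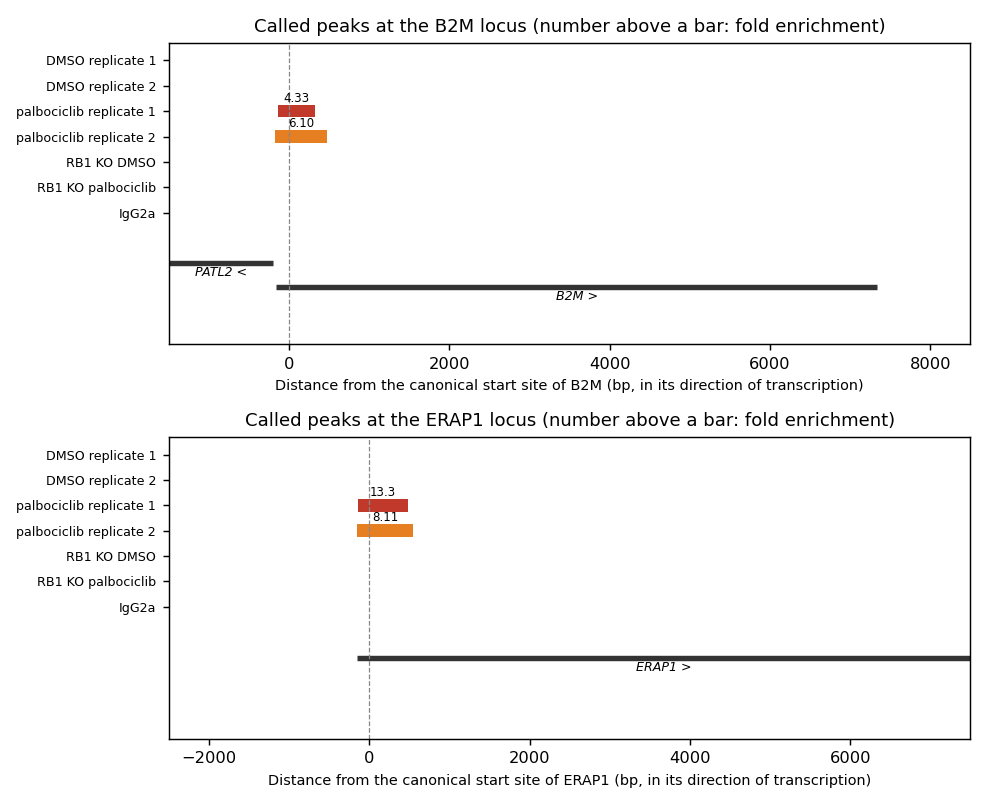
Called peaks (bars, with fold enrichment above each) in the 7 libraries against distance in bp from the canonical TSS of *B2M* (top) and *ERAP1* (bottom), with protein-coding genes as dark lines and arrows for direction. At both genes the palbociclib peaks of the 2 replicates cover the start site, and no other library has a peak in the window.

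*TAP1* and *TAP2* encode the 2 subunits of the peptide transporter and lie near each other in the MHC region, with the immunoproteasome genes *PSMB8* and *PSMB9* among them. *TAP1* had a promoter peak in palbociclib replicate 1, at chr6:32853777-32854085, 309 bp wide, with a fold enrichment of 8.36 and a summit of 16 fragments (95% exact Poisson interval 9.15 to 26.0). The summit lay at -301 bp from the canonical TSS, and the peak also lay in the promoter window of *PSMB9*, which is transcribed away from *TAP1*. No peak was called there in replicate 2, where the lowest summit among called peaks on chromosomes held 5 fragments. That minimum is over the whole list, and the count needed at a site depends on its local background. How many fragments *TAP1* had in replicate 2 is therefore unknown. *TAP2* had no peak in any list. The nearest palbociclib peaks to its start were 5.6 and 5.7 kb away, and these lay between the 2 transporter genes.

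That intervening peak had the highest fold enrichment in the stretch from *TAP1* to *TAP2* and was the one called there with DMSO. It overlapped promoter windows of *PSMB8* and of a long *PSMB9* transcript. Fold enrichment was 6.23 in DMSO replicate 2, with 9 fragments at the summit, and no peak was called in DMSO replicate 1. With palbociclib it was 19.6 and 28.1, with 33 and 47 fragments. The TAP1-TAP2 interval thus held a single Rb peak in each palbociclib library, at *PSMB8* and the long *PSMB9* transcript. The *TAP1* start itself had a peak in 1 library and the *TAP2* start in none.

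*TAPBP* encodes tapasin and had no promoter peak. A peak inside the gene but outside its promoters was called in both palbociclib libraries, a class that held 1 of the 8 members and 3% of all genes. It spanned chr6:33298974-33300054 in replicate 1, with a fold enrichment of 8.71 and 18 fragments. In replicate 2 it spanned chr6:33298783-33299717, with a fold enrichment of 5.72 and 11 fragments. The mean was 7.21 ± 2.12 (SD, n = 2). This peak covered the 3′ end of *TAPBP*, with both summits just beyond the last annotated base, and lay in the promoter window of *RGL2*, which starts there. On the other side, the nearest palbociclib peaks to the *TAPBP* start lay 3.5 and 3.4 kb away, at the promoter of *ZBTB22*.

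**Figure D3:**
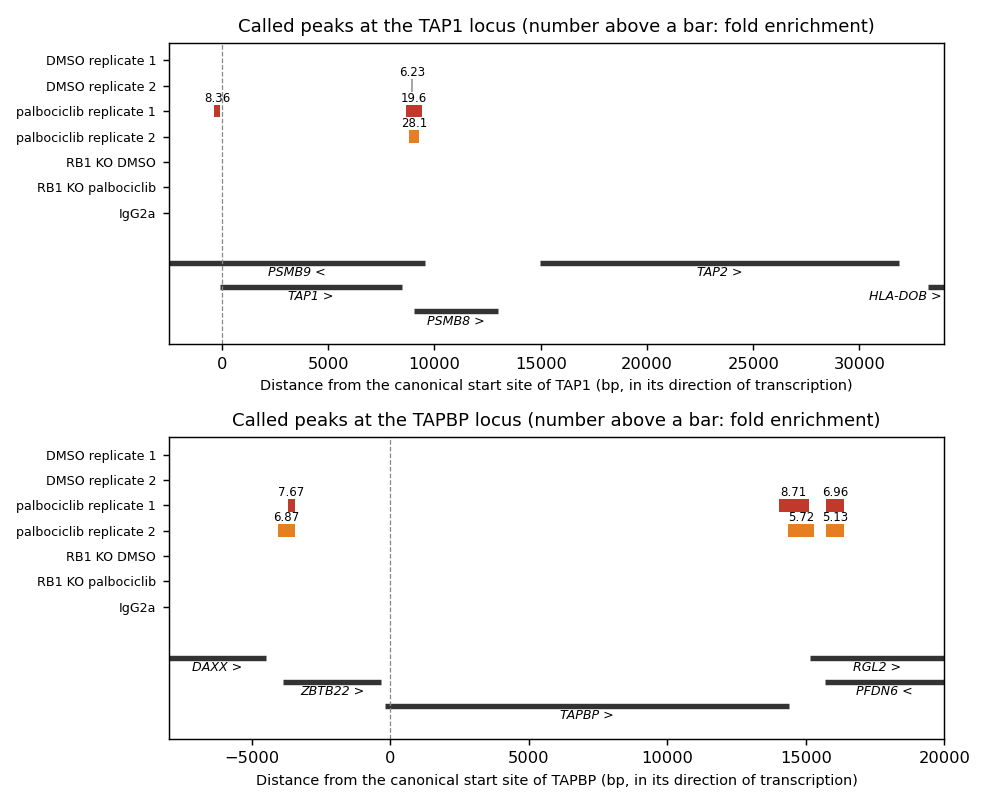
Called peaks (bars, with fold enrichment above each) in the 7 libraries against distance in bp from the canonical TSS of *TAP1* (top, with *TAP2* to the right) and *TAPBP* (bottom), with protein-coding genes as dark lines and arrows for direction. The peak near the start of *PSMB8* is present in DMSO replicate 2 and both palbociclib libraries, the *TAP1* start has a peak in palbociclib replicate 1, and the *TAPBP* start has none.

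The heavy-chain genes *HLA-B* and *HLA-C* had no peak at a promoter or inside the gene in any of the 7 lists. The palbociclib peak nearest to *HLA-B* lay 46.4 and 46.2 kb from its canonical TSS, and 36.5 and 36.3 kb from the annotated gene, at *MICA*, with fold enrichments of 3.4 and 6.63. The one nearest to *HLA-C* lay 113.1 kb from its canonical TSS in both libraries, and 109.8 kb from the gene, at the shared promoter of *CCHCR1* and *TCF19*, with fold enrichments of 63.4 and 62.3. Class I heavy-chain genes resemble each other in sequence and differ between people, and no list held a peak on an alternate contig. How reads from these genes were placed was not tested, so the absence of a peak is less certain here than at the other members.

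*NLRC5*, the class I transactivator, had no peak in any list although its GENCODE model spans 94047 bp and 28 start sites. The nearest palbociclib peaks lay 8.8 and 8.7 kb beyond the 3′ end of the gene, 102.7 kb from its canonical TSS in both libraries, at *CPNE2*, with fold enrichments of 4.08 and 9.21. RB1 KO libraries had no peak on chromosomes 5, 6, 15 or 16, which hold the 8 genes.

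The called peaks had values in the range of those at other promoters. The 3 members with a promoter peak in palbociclib replicate 1 had a median fold enrichment of 8.36, next to 7.75 over the 7918 protein-coding genes with one. The 2 members in replicate 2 had a median of 7.1, next to 7.75 over 7791 genes. Median widths were 465 and 676.5 bp, next to 517 and 500 bp, and median summit distances to the canonical TSS were 115 and 104 bp, next to 167.5 and 164 bp. These values describe the members with a peak and not all 8 genes.

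**Figure D4:**
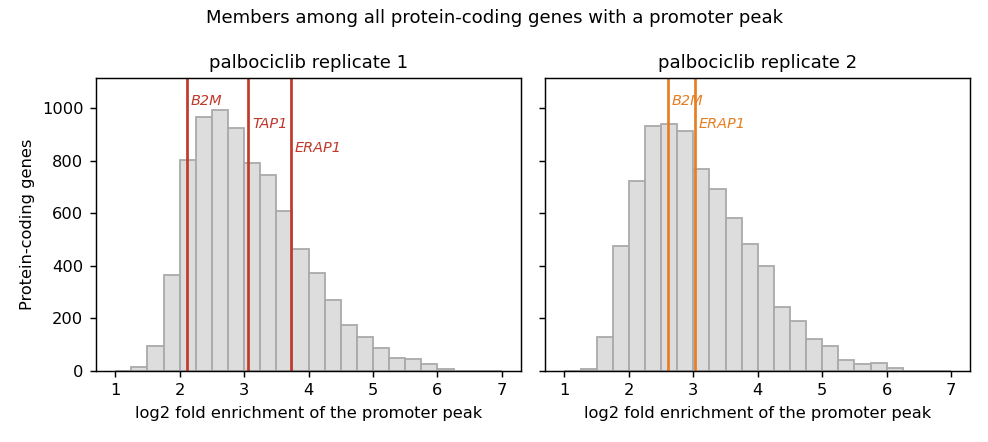
Number of protein-coding genes by log2 fold enrichment of their highest promoter peak (grey bars) in palbociclib replicate 1 (left) and replicate 2 (right), with coloured lines at the members that had one. *B2M* sits in the lower part of both distributions, and *ERAP1* stands above the median in both.

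Sequence features were read in RefSeq promoter windows, from 250 bp before to 50 bp after the start, on GRCh38.p14. Windows were found for 7 of the 8 members, 9 windows in all, and none was found for *NLRC5*. The 9 windows were identical to the hg38 reference at those positions. A CCAAT box (CCAAT) was in 5 of the 9 windows, at *B2M*, *ERAP1*, *HLA-B*, *HLA-C* and *TAP1*, and in 34.6% of all 34961 RefSeq windows. The ISRE (GAAANNGAA) was in 5 of 9, at *B2M*, *ERAP1*, *TAP1*, *TAP2* and *TAPBP*, and in 8.11% of all windows. Only this exact word was counted, so a window without it, as at *HLA-B* and *HLA-C*, may still hold a variant of the element. The core of the cAMP response element (TGACG) was in 4 of 9, at *B2M*, *HLA-B*, *HLA-C* and *TAP2*, and in 24.5% of all windows. The SP/KLF motif (GGGCGG) was in 5 of 9, at *HLA-C*, *TAP2*, *TAPBP* and both windows of *TAP1*, and in 45.0% of all windows. In the 6804 windows that a peak of both palbociclib libraries overlapped, the shares were 40.5% for CCAAT and 4.38% for the ISRE. They were 35.9% for the cAMP response element core and 83.8% for SP/KLF.

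The remaining motifs were rare or missing in these windows. The ETS motif (CCGGAAG) was in 1 of 9, at *TAP1*, and in 10.3% of all windows. The E2F motif, searched as TTTCCCGC, TTTCGCGC, TTTGCCGC and TTTGGCGC, was in 0 of 9, in 3.33% of all windows and in 8.29% of the 6804 windows that a peak of both palbociclib libraries overlapped. The full cAMP response element (TGACGTCA), which contains that core, was in 0 of 9 and in 1.85% of all windows, and the NRF1 motif (GCGCATGCG) was in 0 of 9 and in 1.92%. In the same 6804 windows the ETS motif, the full cAMP response element and the NRF1 motif were in 20.1%, 2.94% and 4.63%. Every motif was searched on both strands, and a match describes letters and not a bound site.

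The cAMP response element core was followed by a reversed CCAAT box at *B2M*, which had a peak, and at *HLA-B* and *HLA-C*, which had none. At *HLA-C* the core began at -105 bp and a CCAAT box at -80 bp from the RefSeq start, at *HLA-B* they began at -106 and -81 bp, and at *B2M* at -75 and -49 bp. The other members with a window did not hold this pair, as *ERAP1* and *TAP1* had a CCAAT box, at -154 and -249 bp, and no core in their windows, and *TAP2* had a core at -35 bp and no CCAAT box. In the *B2M* sequence printed above, the ISRE letters sit further upstream, starting at -144 and -138 bp. Around the *ERAP1* summits, the windows of 201 bp in both libraries held the core and the SP/KLF motif. These occurred in 21.1% and 20.9%, and in 66.6% and 67.9%, of all palbociclib summit windows in replicates 1 and 2.

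Base composition was also read in these windows. RefSeq windows overlapped by a peak of both palbociclib libraries had a median GC content of 68.7% and a median of 30 CpG dinucleotides, and all other windows had 55.0% and 8. The *ERAP1* window at the peak had 67.7% GC and 28 CpG. *B2M*, also with peaks, had 58.3% and 22. Without peaks, *HLA-B* had 62.0% and 22, *HLA-C* 62.7% and 19, *TAP2* 60.0% and 24 and *TAPBP* 64.3% and 12. All of these had more GC than *B2M*, and of them only *TAP2* had more CpG. The second windows of *TAP1* and *ERAP1*, also without peaks, had less of both, with 55.7% and 11, and 46.0% and 3. The *TAP1* window with a peak in replicate 1 had 63.0% and 22.

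A wider list of 36 genes of antigen presentation gave the setting. A promoter peak in both palbociclib libraries was called at 16 of the 36, against the 34.9% of all genes given above. In exactly 1 palbociclib library it was called at 6, against 8.82% of all genes, and in a DMSO library at 6, against 6.59%. The class with a peak in both palbociclib and no DMSO libraries held 10, near the 28.4% of all genes. In an RB1 KO or IgG2a library it was called at 0, against 0.01% and 1.95%. Roles within the list held 1 to 8 genes each, and their counts below stand against the same shares of all genes.

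Immunoproteasome genes, which encode the interferon-induced catalytic subunits and activator of the proteasome, had promoter peaks in both palbociclib libraries at 5 of 5 genes, against 34.9% of all genes. These were 4 separate peaks, since *PSMB8* and *PSMB9* share 1. Fold enrichment in replicates 1 and 2 was 18.4 and 17.6 at *PSMB10*, 16.5 and 14.7 at *PSME1* and 18.9 and 15.9 at *PSME2*, with 19.6 and 28.1 at the peak shared by *PSMB8* and *PSMB9*. Every one of these values was above the 13.3 and 8.11 of *ERAP1* in the same library. The summits at *PSMB10* lay 978 and 1009 bp downstream of its canonical TSS, but at -77 and -46 bp from its nearest annotated start site. The *PSMB10* peak also lay in the promoter window of another protein-coding gene, and the *PSME2* peak in that of *RNF31*. *PSMB9* was counted through the start of a long transcript, as the shared peak's summits lay at -9426 and -9457 bp from its canonical TSS. Near that canonical TSS a peak was called in replicate 1 only, with a fold enrichment of 8.36.

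Chaperones of peptide loading had promoter peaks in both palbociclib libraries at 3 of 4 genes, against 34.9% of all genes. The highest was at *CANX*, which encodes calnexin, a chaperone of new heavy chains, with fold enrichments of 55.4 and 51.5 with palbociclib. The values were 9.38 and 8.05 at *CALR*, which encodes calreticulin, and 13.4 and 11.4 at *PDIA3*, a thiol oxidoreductase of the loading complex. *TAPBPL* had none. The trimming enzyme gene *ERAP2*, a relative of *ERAP1*, had none either, and the class I genes *HLA-E*, *HLA-F* and *HLA-G* gave 0 of 3.

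Promoter peaks at the transactivator genes were called at 2 of 8 in both of the palbociclib libraries, against 34.9% of all genes. These were *RFXANK*, with 5.47 and 7.28, and *NFYA*, with 10.6 and 11.3, which encode subunits of the RFX and NF-Y complexes. The *RFXANK* peak also lay in promoter windows of *BORCS8*, *BORCS8-MEF2B* and *MEF2B*, and the *NFYA* peak in that of *OARD1*. Neither signal can be assigned to the transactivator gene alone. The other 6 had a promoter peak in 1 palbociclib library, a class of 8.82% of all genes, *CIITA* in replicate 2 and *RFX5*, *RFXAP*, *NFYB*, *NFYC* and *CREB1* in replicate 1. *CIITA* also had a peak inside the gene in both, at the promoters of *CLEC16A* and *DEXI*.

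Genes of the interferon pathway had promoter peaks in both palbociclib libraries at 5 of 7, against 34.9% of all genes. *STAT2* was the highest, with 14.8 and 20.8, followed by *JAK1* with 11.6 and 12.7 and *JAK2* with 7.57 and 8.91. *IRF1* had a pair of promoter peaks in each library, with 6.14 and 8.11 near its canonical TSS and 7.32 and 4.99 at a start site further upstream, so its highest peak lay at a different start site in each replicate. *IFNGR1*, with 6.10 and 4.29, was the lowest of the 5. The *JAK1* peak overlapped the promoter window of a start site far upstream, with summits at -100077 and -100339 bp from the canonical TSS. Those summits lay at +988 and +726 bp from the nearest *JAK1* start site, so only the edge of the peak reached its window. The peak also lay in the promoter window of a non-coding gene. *IRF2* and *IFNGR2* had no promoter peak. Class II genes, which present to CD4+ T cells, gave 1 of 8, against the same 34.9%. That gene was *HLA-DMA*, with 4.09 and 5.07, through a start site over 15 kb upstream of its canonical TSS that shares the peak with *BRD2*.

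**Figure D5:**
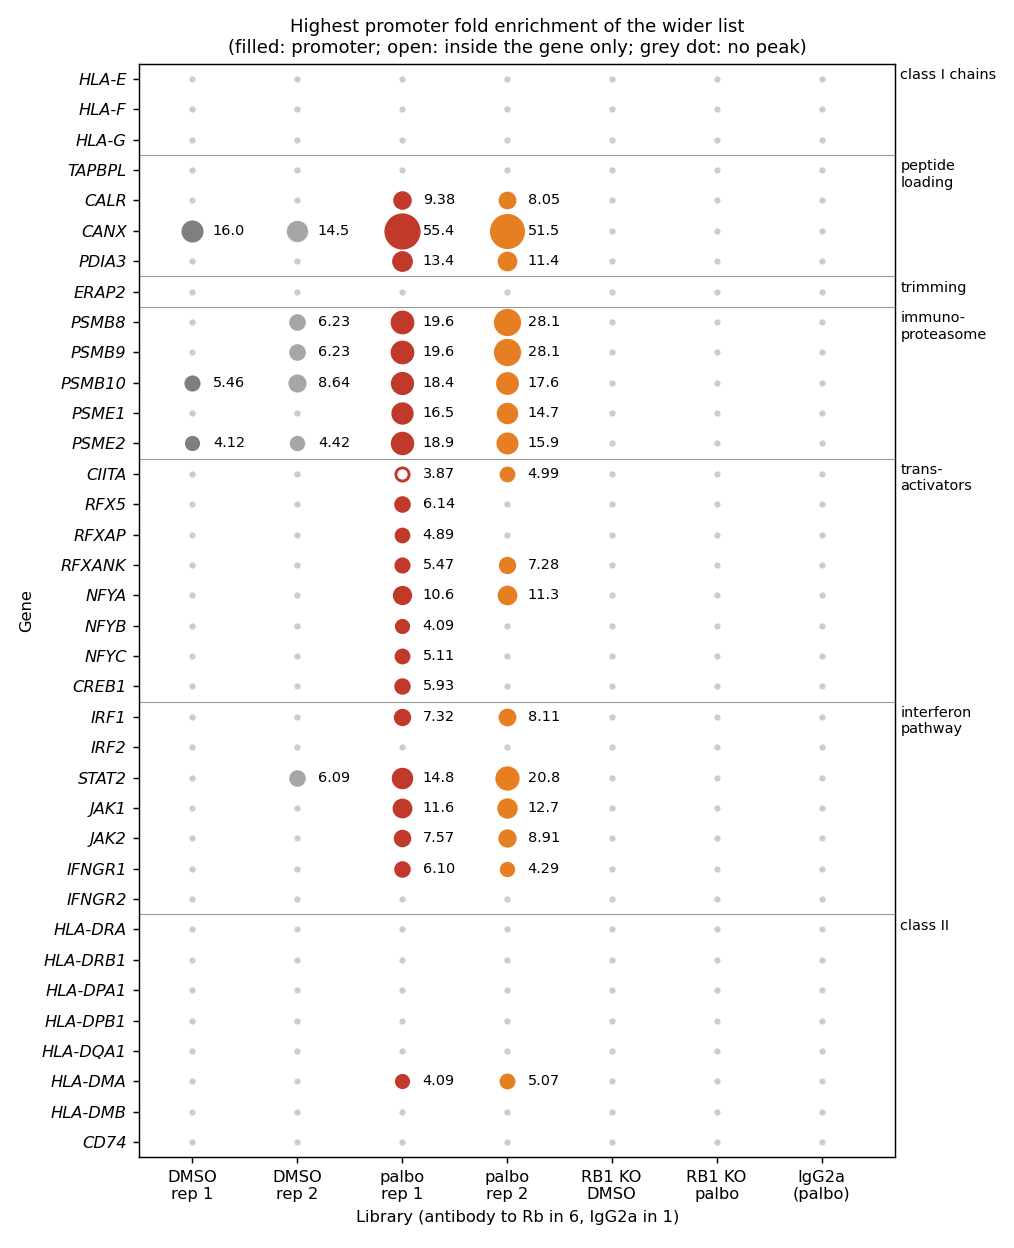
Highest promoter fold enrichment (number beside each circle) of the 36 genes of the wider list, 1 gene per line in blocks by role and 1 library per column, with circle area growing with fold enrichment. All 5 immunoproteasome genes have circles in both palbociclib columns, *PSMB9* through a start site far upstream of its canonical one. In a DMSO column 6 genes of the list have a circle, and the RB1 KO and IgG2a columns have none.

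Palbociclib and DMSO could be compared by fold enrichment only where all 4 parental libraries had a promoter peak, and no member met this. In the wider list *CANX*, *PSMB10* and *PSME2* did. With DMSO, fold enrichment was 16.0 and 14.5 at *CANX*, 5.46 and 8.64 at *PSMB10* and 4.12 and 4.42 at *PSME2*. With palbociclib it was higher than both DMSO values in both libraries at each of the 3 genes, as it was at 100% of the 580 protein-coding genes with a promoter peak in all 4 libraries, so that this order was not particular to them. The ratio of palbociclib to DMSO was 3.51 at *CANX*, 2.62 at *PSMB10* and 4.06 at *PSME2*. The exact permutation test, two-sided, gave p = 0.33 for each, the smallest value that 2 libraries against 2 allow. At *PSMB8* and *PSMB9* and at *STAT2* a DMSO peak was called in replicate 2 only, with fold enrichments of 6.23 and 6.09.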

How the data were processed

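Rb CUT&RUN in ZR-75-1 was analysed from 7 deposited peak lists, 1 per library, grouped by sample title. According to the study's methods and processing notes, adapters were cut with BBDuk and hg38 was the alignment target for Bowtie2 (version 2.3.4.1). The authors dropped reads in blacklisted regions and in mitochondrial DNA, left duplicates in, and ran MACS2 (version 2.2.7.1) on read pairs of each library, with its IgG as control and a q-value limit of 0.05. The control for the IgG2a list is not given in the sources used here.

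The deposited fold enrichment is a ratio, the summit's fragment pileup over the background around it, with 1 fragment added to each. For the Rb lists this background was estimated from the IgG control. Each peak's −log10 p, −log10 q and a score made from q are deposited too. Fold enrichment and −log10 p together gave the pileup and background (largest misfit 0.000512 in −log10 p over the 57 peaks used for the genes). For 5 peaks in each palbociclib list this had no solution, and they were still counted as peaks.

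Overlap of at least 1 bp with GENCODE 44 promoters was counted in Python 3.11.15 (scipy 1.17.1), after tests on simulated peaks. The strongest peak by fold enrichment stood for a gene in a library. Named genes were the members, genes sharing a member's peak, wider-list genes with a promoter peak in both palbociclib libraries or in a DMSO, RB1 KO or IgG2a library, and 2 genes most like *ERAP1*. Other wider-list genes, genes at the nearest peaks and genes sharing a wider-list peak were named after their values were seen. The members and lists were chosen with earlier results of these data known, and 2 genes of the wider list are not reported here. Alternatives changed the window, start sites, thresholds, list length and libraries.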

Additional observations from a re-analysis of the deposited data

How the results depend on the processing

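Most results kept their direction and size under the alternatives. Of 100 alternative values for 14 results, 93 stayed within the spread between replicates or within 1.5 times the count, 7 moved and 0 reversed. With a fold enrichment of at least 5, 1 member in place of 2 had a peak in both palbociclib libraries, and likewise 1 in place of 2 had one in both and in no DMSO library, since *B2M* was below 5 in replicate 1. Under the same setting the median fold enrichment of the member peaks was 8.96 in place of 7.73, and the median summit distance to the TSS, averaged over the replicates, 156 bp in place of 109.5 bp. With all 4 parental lists shortened to their 816 leading peaks by −log10 q, both member counts fell to 0 and the wider-list count to 2 from 16, so presence at these genes depends on list length. Leaving out 1 parental library at a time gave 2 to 3 members with a peak in every palbociclib library used, and 16 to 21 genes of the wider list. Without palbociclib replicate 2 the count of members was 3, because *TAP1* then entered.

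The same-numbered libraries did not deviate together (r = 0.0648 over 580 genes, which are not independent replicates), and with 2 pairs the numbers are only a label. No member could be tested with a replicate block because none had a peak in all 4 parental libraries. At *CANX*, *PSMB10* and *PSME2* the replicate block, chosen after seeing the data, left the ratios at 3.51, 2.62 and 4.06, with an exact sign-flip p = 0.5, the smallest that 2 pairs allow. Recovered pileups gave ratios of 3.69, 2.85 and 4.65. Peak lists hold no signal below the calling threshold, so weaker occupancy at *HLA-B*, *HLA-C*, *TAP2* and *NLRC5* or with DMSO was not detectable here.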
